A study of Homo sapiens with 4 samples.

Results

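ATF4 and 9 genes known as its targets or partners in the integrated stress response were followed from wild-type to TXNDC9 knockout cells. The genes were chosen by name (ATF4, DDIT3, ATF5, TRIB3, CHAC1, SESN2, DDIT4, ASNS, PHGDH and PSAT1), with earlier results of these data known. Their counts beside the shares of all genes are therefore a description. Each had 1 row among the 57979 genes with values, and all 10 had a mean expression above 1 FPKM. FPKM gives the fragments of a gene per length of transcript and per unit of mapped fragments in that library. Polyadenylated RNA was sequenced in 4 libraries, 2 labelled wild type (WT rep1 and WT rep2) and 2 labelled TXNDC9 knockout (TXNDC9-KO rep1 and TXNDC9-KO rep2), all from cells labelled HepG2, a human liver cancer line, grown in DMEM with fetal bovine serum. The knockout cells had received a lentivirus carrying Cas9 and a guide RNA against TXNDC9, which encodes a thioredoxin domain containing protein. The sources used here do not say which guide a knockout library had received, whether its cells were a clone, how long after infection they were taken, or whether the 2 libraries of a genotype came from separate cultures, so the p-values measure the spread between these libraries, which may be technical.

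The integrated stress response starts when kinases that sense amino acid shortage, unfolded protein in the endoplasmic reticulum, double-stranded RNA or lack of heme phosphorylate the translation factor eIF2. Overall translation then slows, while the mRNA of ATF4, which carries short upstream reading frames, is translated more, and the ATF4 protein switches on genes for amino acid synthesis and uptake, tRNA charging and, when stress lasts, cell death. ATF4 is itself regulated largely at the level of translation, which RNA-seq does not measure.

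ATF4 binds as a dimer with C/EBP family proteins to the C/EBP-ATF response element, whose core was searched for as TGATGNAA on both strands. Within 1000 bases on each side of the start of the canonical transcript, this core was found in 8 of the 10 genes (all but ATF4 and ATF5), and in 16.9% of the 13112 tested genes with an annotated start. The match nearest to the start in each gene is shown because these genes carry the results that follow; the strand is that of the gene, and capitals mark the core or its reverse complement. Positions count from the transcript start in the hg38 reference.
ASNS (upstream, first base of the core at -68, chr7:97872458-97872487, minus strand): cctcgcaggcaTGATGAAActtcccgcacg
CHAC1 (upstream, -209, chr15:40953251-40953280, plus strand): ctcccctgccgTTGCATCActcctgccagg
SESN2 (upstream, -296, chr1:28259211-28259240, plus strand): gtgaagtccctTTTCATCAcgcaaccctaa
DDIT3 (upstream, -306, chr12:57520802-57520831, minus strand): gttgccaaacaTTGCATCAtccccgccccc
DDIT4 (upstream, -946, chr10:72272967-72272996, plus strand): gtcctcggtccTGATGCAAccgtctggatc
TRIB3 (non-coding part of exon 1, 133, chr20:380881-380910, plus strand): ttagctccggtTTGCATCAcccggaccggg
PSAT1 (intron 1, 268, chr9:78297381-78297410, plus strand): ccctaggcgctTTGCATCAgcgtgcacagc
PHGDH (intron 1, 864, chr1:119712786-119712815, plus strand): cgcccctcgtcTGATGCAAgactgctccgt

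In TRIB3 the same 30 bases occurred 3 times, with the core at 133, 166 and 199. DDIT3 had 2 further matches in intron 1, at 820 and 876, and ASNS, SESN2 and PHGDH had 1 further match each. The narrower promoter windows of RefSeq, which run from 250 bases before to 50 after a start, held the core in 2 of the 17 windows of these genes (ASNS and CHAC1) and in 3.62% of 35116 windows. The wider window was chosen after the narrow ones had been seen. The cAMP response element TGACGTCA was found in the wider window of 0 of the 10 genes (5.14% of tested genes), the endoplasmic reticulum stress element in 0 (0.198%), and the E-box CACGTG in 2, ATF4 and PSAT1 (32.2%). A match is a string of letters and was not tested for binding.

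TXNDC9, the targeted gene, had 35.1 FPKM in WT rep1, 37.3 FPKM in WT rep2, 21.9 FPKM in TXNDC9-KO rep1 and 27.6 FPKM in TXNDC9-KO rep2. Both knockout values were below both wild-type values, but the difference passed neither threshold used here (log2 fold change -0.55 ± 0.14 (SE), adjusted p = 0.0145 by limma), and its sign turned when all libraries were rescaled to the same sum (TPM, 0.12). An mRNA level does not measure a frameshift, so it checks the labels only in part.

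The markers of the labelled line were nearly absent. Of 10 hepatocyte markers, 9 (ALB, AFP, APOA1, APOB, TTR, SERPINA1, FGA, FGB and HNF4A) were below 1 FPKM in each of the 4 libraries, the highest value being 0.449 FPKM for AFP, and APOA1 was listed at 0 in all 4. The exception was FOXA1, a transcription factor of liver and other epithelia, which had 4.45 FPKM in WT rep1, 2.92 FPKM in WT rep2, 7.61 FPKM in TXNDC9-KO rep1 and 8.53 FPKM in TXNDC9-KO rep2. Of 10 markers of leukocytes, endothelium and fibroblasts, 5 were below 1 FPKM in every library, and the summed level of the list was 60.3 and 58.9 FPKM in wild-type against 44.8 and 43.1 FPKM in knockout libraries. The collagen genes COL1A1 and COL3A1 stood between 17.5 and 31.5 FPKM and between 13.1 and 24.0 FPKM, while COL1A2 was listed at 0 in all 4 libraries. The data therefore went against the label HepG2 in both genotypes alike, and the results below describe cells labelled HepG2. The part of these marker levels in the results was not tested.

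The FPKM values of a library summed to 805816 and 971102 in wild type and to 535973 and 568279 in knockout. Such a sum depends on the lengths of the transcripts sequenced as well as on how a library was scaled. These cannot be told apart here, and the sequencing depth is unknown. Across the 13246 genes with a mean above 1 FPKM, the 2 wild-type libraries correlated at 0.976 and the knockout libraries at 0.980, against 0.859 to 0.897 between genotypes. A call required at least a 2-fold difference together with an adjusted p under 0.01 (limma on log2(FPKM + 0.1), Benjamini-Hochberg over all tested genes). By this rule 2021 genes were lower and 1885 higher in the knockout, so that 48.3% of the calls were higher. This split moved to 90.7% in TPM and to 35.8% after centring each library on its median. The median log2 fold change of all genes was -0.09 as deposited and 0.59 in TPM, and each gene's distance from it is given where it matters.

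Against this background, ASNS, PHGDH, CHAC1 and DDIT3 fell in the knockout, none of the 10 genes rose, and DDIT4 stayed within the spread of the libraries. In bulk RNA, fewer cells that express a gene and less RNA per cell cannot be told apart. The 4 of 10 genes called lower compare with 15.3% of all tested genes, and the 0 of 10 called higher with 14.2%. With no fold threshold 8 of the 10 were lower, compared with 27.1% of tested genes, and 0 were higher, compared with 23.7%. Both knockout values lay below both wild-type values in 9 of the 10 genes, compared with 45.9% of tested genes. Exact permutation of 2 against 2 libraries cannot give a two-sided p below 0.33, so no such test is given for single genes. The median log2 fold change of the 10 genes was -0.75, against -0.09 over all genes. Measured from the median of all genes, 9 of the 10 lay below it as deposited. TPM shifts all genes of a library nearly alike on the log scale, so the same 9 of 10 in TPM adds nothing. After the length and GC correction described further on, 7 of the 10 lay below that median.

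**Figure D1:**
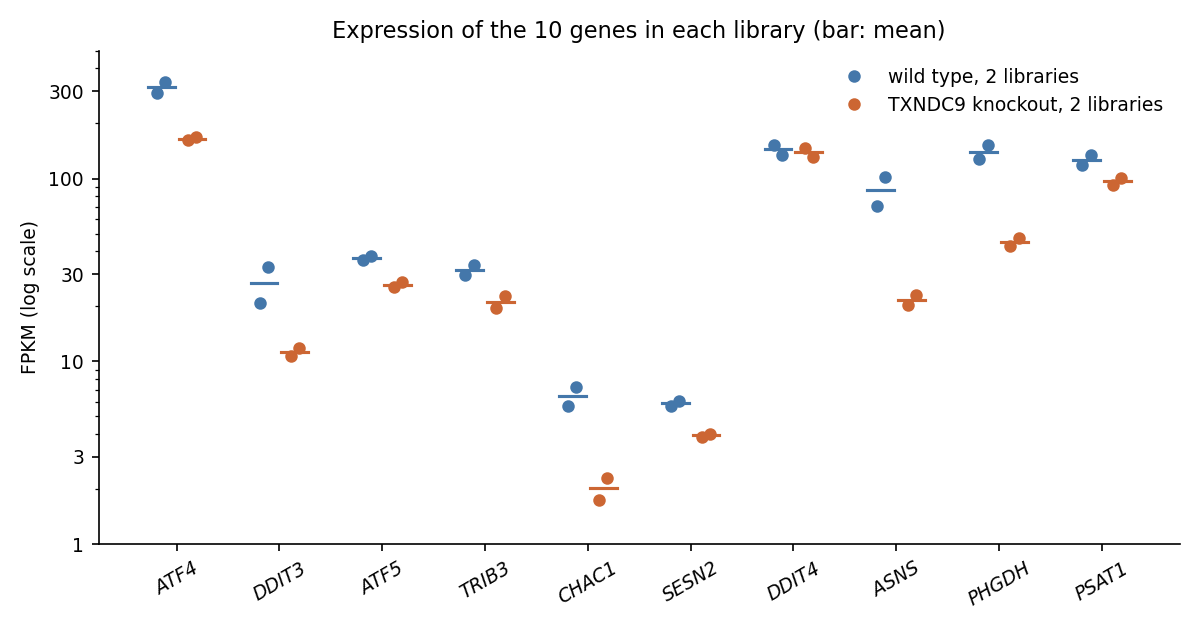
FPKM of the 10 genes (x axis) on a log scale (y axis), with 1 point per library and a bar at the mean of 2 libraries, wild type in blue and knockout in orange. The knockout points lie below both wild-type points for every gene except DDIT4; in TPM this held for 5 of the 10 genes (22.2% of tested genes).

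ATF4, the transcription factor at the centre of the response, was the most abundant of the 10 per length in both genotypes. It stood at 293 and 339 FPKM in wild type and at 162 and 169 FPKM in knockout. The knockout libraries held about the same level, and both lay well below the wild-type pair. The knockout mean was 52.3% of the wild-type mean (log2 fold change -0.93 ± 0.13, adjusted p = 0.0018), which passed the p threshold and missed the 2-fold threshold. Its distance from the median change of all genes was -0.84 as deposited, and it had rank 2545 from the lowest among 13246 genes. In TPM, which shifts all genes of a library nearly alike, this distance stayed at -0.84 by construction. The gene lies on chromosome 22 (39519695 to 39522683, plus strand), and of its 4 processed pseudogenes only ATF4P3 had a value above 0, with at most 0.0353 FPKM in a library. Centring on the library medians (log2 fold change -1.08) or leaving out WT rep1 (-1.04) brought ATF4 past the 2-fold threshold, whereas in TPM (-0.25, adjusted p = 0.0265) and after the length and GC correction (-0.33, adjusted p = 0.0107) it passed neither threshold.

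DDIT3 encodes CHOP, a transcription factor tied to cell death under lasting endoplasmic reticulum stress. It stood at 20.9 and 32.7 FPKM in wild type and at 10.7 and 11.8 FPKM in knockout. The groups did not overlap, but the wild-type libraries were 1.56-fold apart, the widest gap among wild-type pairs of these genes. DDIT3 fell to 42.0% of the wild-type mean (log2 fold change -1.21 ± 0.22, adjusted p = 0.0042). The call rested on WT rep2: without it the log2 fold change was -0.89. It was also lost with no filter on low values (adjusted p = 0.0224) and without the variance trend (adjusted p = 0.0123), and in TPM (log2 fold change -0.54, adjusted p = 0.0207) and after the correction (-0.67, adjusted p = 0.0158) it passed neither threshold. DDIT3 overlaps MARS1 (MARS in the table) and MBD6 on the opposite strand, and whether fragments were counted by strand is not given in the sources used here. MARS stood at 129 and 190 FPKM in wild type and at 86.1 and 67.7 FPKM in knockout, so its level was several times that of DDIT3 and lower in the same libraries, while MBD6 ranged from 8.12 to 9.25 FPKM over the 4 libraries.

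ATF5, a relative of ATF4 that is also under translational control by eIF2, stood at 36.0 and 37.6 FPKM in wild type and at 25.5 and 27.0 FPKM in knockout. The pairs were tight and did not overlap, yet the difference was below 2-fold (log2 fold change -0.49 ± 0.10, adjusted p = 0.0067). In TPM its sign turned (0.19). ATF5 overlaps NUP62 on the opposite strand, which stood at 42.8 and 37.0 FPKM in wild type and at 47.0 and 49.7 FPKM in knockout.

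TRIB3, a pseudokinase induced by ATF4 and CHOP that restrains both ATF4 and AKT, stood at 29.6 and 33.5 FPKM in wild type and at 19.7 and 22.8 FPKM in knockout. Both knockout libraries were below both wild-type libraries (log2 fold change -0.57 ± 0.13, adjusted p = 0.0089), without reaching 2-fold. TRIB3 is the gene with 3 copies of the response element core in exon 1. In TPM the sign of TRIB3 turned (0.11).

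CHAC1 encodes an enzyme that degrades glutathione and is a sensitive reporter of the PERK and ATF4 branch. It stood at 5.68 and 7.25 FPKM in wild type and at 1.74 and 2.30 FPKM in knockout. The lowest wild-type library was above the highest knockout library by a wide margin on a low scale. CHAC1 fell to 31.2% of the wild-type mean (log2 fold change -1.63 ± 0.21, adjusted p = 0.0013), and its distance from the median of all genes was -1.55. The call was lost in TPM, where the log2 fold change was -0.98, and after the length and GC correction (-0.72).

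SESN2 (sestrin 2), a stress-induced inhibitor of mTORC1 that also senses leucine, stood at 5.70 and 6.08 FPKM in wild type and at 3.84 and 4.03 FPKM in knockout. The pairs were close and apart from each other (log2 fold change -0.57 ± 0.13, adjusted p = 0.0094), below 2-fold. Its sign turned in TPM (0.10).

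DDIT4 (REDD1), an inhibitor of mTORC1 that is induced by hypoxia, glucocorticoids and DNA damage as well as by ATF4, stood at 154 and 135.0 FPKM in wild type and at 147 and 131 FPKM in knockout. It was the exception among the 10 genes: the groups overlapped, and the spread within each genotype was as wide as the gap between them. The log2 fold change was -0.05 ± 0.13 with a 95% interval from -0.37 to 0.26 (adjusted p = 0.72), so a 2-fold difference in either direction lay outside the interval on the deposited scale. DDIT4 was also the only one of the 10 above the median of all genes (by 0.03). In TPM the log2 fold change was 0.63 (adjusted p = 0.0126), and its sign also turned without WT rep1 (0.038) and without TXNDC9-KO rep2 (0.027).

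ASNS, asparagine synthetase, makes asparagine from aspartate and glutamine and is the classic target of the amino acid branch. It stood at 70.5 and 102 FPKM in wild type and at 20.2 and 22.9 FPKM in knockout. The knockout libraries were within a few FPKM of each other, far under the lower wild-type library. ASNS fell to 25.1% of the wild-type mean, a 3.99-fold difference (log2 fold change -1.97 ± 0.19, adjusted p = 0.0007), with rank 273 from the lowest among 13246 genes. It was the only one of the 10 genes called lower on the deposited scale, in TPM (-1.29, adjusted p = 0.0002) and after the length and GC correction (-2.003, adjusted p = 0.0012). Of its 4 pseudogenes with a row, only ASNSP6 had a value above 0 (0.0220 FPKM in TXNDC9-KO rep1).

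PHGDH and PSAT1 catalyse successive steps of serine synthesis from 3-phosphoglycerate. PHGDH stood at 128 and 152 FPKM in wild type and at 42.6 and 47.5 FPKM in knockout. It fell to 32.1% of the wild-type mean (log2 fold change -1.63 ± 0.13, adjusted p = 0.0005), and in TPM and after the correction it came just under 2-fold (-0.95 in both). PSAT1 stood at 118 and 135 FPKM in wild type and at 91.8 and 101 FPKM in knockout. Its groups did not overlap either, but the difference was small and not called (log2 fold change -0.39 ± 0.12, adjusted p = 0.0338), and it turned in TPM (0.29).

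Ratios of genes within a library do not depend on the factor by which the whole library was scaled. PHGDH stood at 109% and 112% of the PSAT1 level in the wild-type libraries and at 46.4% and 46.9% in the knockout libraries. The 2 serine enzymes, about equal in wild type, were thus unequal in the knockout, and the libraries of a genotype gave nearly the same ratio. ASNS stood at 59.7% and 75.2% of PSAT1 in wild type and at 22.0% and 22.7% in knockout. Relative to ATF4, ASNS went from 24.0% and 30.02% to 12.5% and 13.6%, and PHGDH from 43.8% and 44.8% to 26.3% and 28.1%. Both enzymes were therefore lower even against the lower ATF4 mRNA. In the opposite direction, PSAT1 went from 40.3% and 39.9% of the ATF4 level to 56.8% and 59.9%, and DDIT4 from 52.3% and 39.8% to 90.8% and 77.5%. ATF5 (from 12.3% and 11.1% to 15.8% and 16.0%), TRIB3 and SESN2 stood higher against ATF4 too, while CHAC1 and DDIT3 stood lower. None of these ratios overlapped between the genotypes, but how often ratios of other genes overlap was not counted. Most single genes did not overlap either: of 13246, 6086 were lower and 5318 higher in both knockout libraries. The ratios do depend on transcript length and GC content, which differ between the genes. After the correction described further on, the log2 change of PHGDH over PSAT1 went from -1.24 to -0.58 and that of PSAT1 over ATF4 from 0.54 to -0.05, so the latter was gone. That of ASNS over PSAT1 went from -1.58 to -1.62 and that of DDIT4 over ATF4 from 0.88 to 0.99. The ratios were picked after the values had been seen and carry no test.

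The order of the genes by FPKM changed with these shifts. In wild type it ran from ATF4 (mean 316 FPKM) through DDIT4 (144), PHGDH (140), PSAT1 (127), ASNS (86.1), ATF5 (36.8), TRIB3 (31.6) and DDIT3 (26.8) to CHAC1 (6.47) and SESN2 (5.89). The neighbours DDIT4 and PHGDH, PHGDH and PSAT1, TRIB3 and DDIT3, and CHAC1 and SESN2 overlapped between libraries, so their order was not resolved. In knockout ATF4 (165) and DDIT4 (139) still led, followed by PSAT1 (96.5), PHGDH (45.0), ATF5 (26.3), ASNS (21.6), TRIB3 (21.2), DDIT3 (11.3), SESN2 (3.93) and CHAC1 (2.02). Only ASNS and TRIB3 overlapped there.

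Transcript length moved with the fold change over the whole table. Across 13112 tested genes Spearman's rho between the log2 fold change and the length of the canonical transcript was 0.495, a description across genes of the same 4 libraries. The canonical transcripts of the 10 genes ran from 903 nt (DDIT3) to 3462 nt (SESN2), and 9 of the 10 were shorter than the median of 2866.5 nt. Each library was therefore also corrected for length and GC content. After the correction 1 of the 10 genes was called lower (ASNS), compared with 7.39% of tested genes, and 0 higher, compared with 6.41%. The median of the 10 was then -0.35, against -0.05 for all genes. ATF4 then stood at -0.33 (adjusted p = 0.0107), DDIT3 at -0.67 (0.0158), CHAC1 at -0.72 (0.0193) and PSAT1 at -0.38 (0.0101), which passed neither threshold. PHGDH stood at -0.95 (adjusted p = 0.0013) and missed only the 2-fold threshold. TRIB3 (0.12), ATF5 (0.23) and DDIT4 (0.66) changed sign. In TPM likewise 1 of the 10 genes was called lower (3.37% of tested genes) and 0 higher (33.1%), with a median of -0.08 against 0.59. What part of the differences goes with transcript length, and why length and genotype moved together in these libraries, was not tested.

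**Figure D2:**
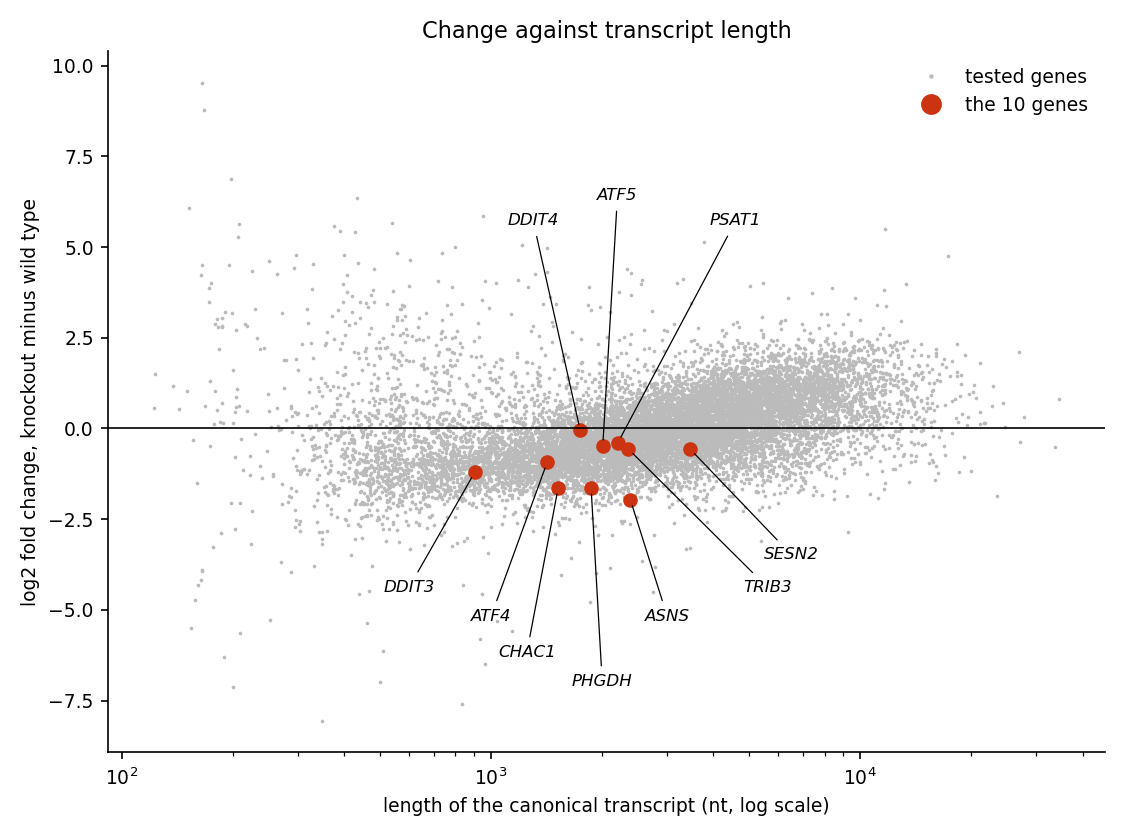
Log2 fold change, knockout minus wild type (y axis), against the length of the canonical transcript in nucleotides on a log scale (x axis), for the tested genes (grey) and the 10 genes (red). Longer transcripts lie higher on the whole (Spearman's rho 0.495), and ASNS lies lowest of the 10 genes, at -1.97.

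**Figure D3:**
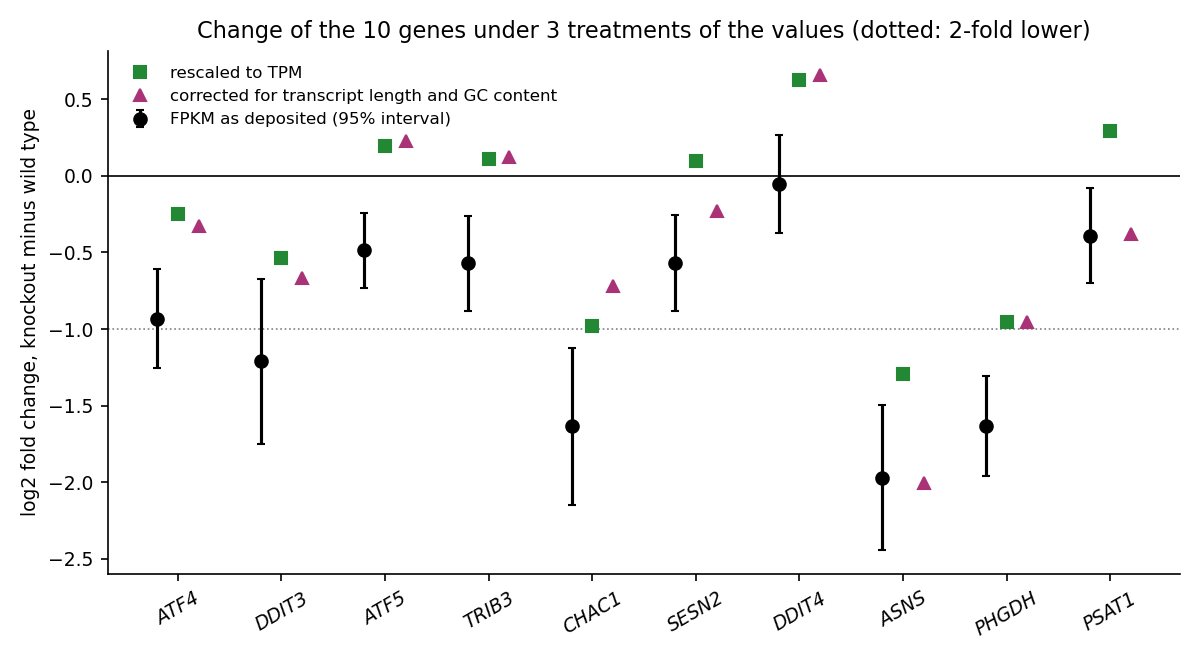
Log2 fold change, knockout minus wild type (y axis), of each of the 10 genes (x axis) on the deposited scale (circles, with limma's 95% interval), in TPM (squares) and after correction for transcript length and GC content (triangles). ASNS is the only gene beyond 2-fold under all 3 treatments, while TRIB3, ATF5 and DDIT4 lie above 0 in TPM and after correction.

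The genes around ATF4 in the pathway were called lower about as often as all tested genes, and higher no more often. Over the 6 lists, 79 of 82 genes were tested, of which 12 were lower and 7 higher in the knockout, compared with 15.3% lower and 14.2% higher among all tested genes. The counts of the single lists below, of 8 to 18 genes each, are to be read against the same shares, and those lists are too short for a difference from them to be read. Their median log2 fold change was -0.25, against -0.75 for the 10 genes and -0.09 for all genes. In TPM 1 was lower and 24 were higher (3.37% and 33.1% of all tested genes), and after the length and GC correction 9 were lower and 3 higher (7.39% and 6.41%). Without WT rep2 the count of lower genes was 7.

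Of 8 amino acid transporters, 2 rose and 0 fell, and on both sides others differed without reaching 2-fold. SLC38A2, which imports neutral amino acids and is induced by amino acid shortage, stood at 97.1 and 85.4 FPKM in wild type and at 474 and 467 FPKM in knockout. It rose 5.16-fold (log2 fold change 2.37 ± 0.12, adjusted p = 0.0005), and it was higher in TPM and after the correction too (1.62). SLC7A11, the cystine importer that supplies glutathione synthesis, stood at 5.23 and 6.08 FPKM in wild type and at 21.9 and 29.6 FPKM in knockout. It rose 4.55-fold (2.15 ± 0.17, adjusted p = 0.0005), though with a transcript of 9645 nt it came just under 2-fold after the correction (0.96). Of the 8 transporters, 4 had a positive and 4 a negative log2 fold change. SLC7A1 was higher without reaching 2-fold (0.81, adjusted p = 0.0024 by limma). It was called higher in TPM (1.49) but not after the correction (0.40). SLC1A5, which imports glutamine, stood at 147 and 177 FPKM in wild type and at 77.2 and 85.5 FPKM in knockout (log2 fold change -0.99, adjusted p = 0.0018), and SLC3A2, the heavy chain shared by SLC7A5 and SLC7A11, stood at 688 and 811 FPKM in wild type and at 376 and 406 FPKM in knockout (-0.93, adjusted p = 0.0032). Both just missed 2-fold, and 2 transporters were called lower after centring and without WT rep1. In TPM SLC1A5 (-0.31) and SLC3A2 (-0.25) passed neither threshold, nor did they after the correction (-0.44 and -0.27). SLC7A5, the leucine importer, had a log2 fold change of -0.51 (adjusted p = 0.0159).

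Of 11 further enzymes of amino acid and one-carbon metabolism, 10 were tested and none was called in either direction on the deposited scale (median -0.23). The largest differences were those of PYCR1, which makes proline (log2 fold change -0.59 ± 0.11, adjusted p = 0.0042), and SHMT2, the mitochondrial serine hydroxymethyltransferase (-0.55 ± 0.11, adjusted p = 0.0054). Both turned in TPM (0.09 and 0.13). In TPM 3 of the 10 enzymes were called higher, MTHFD2 (1.15), CTH (1.13) and BCAT1 (1.23), compared with 33.1% of tested genes.

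Of the 13 genes for tRNA synthetases and the tRNA exporter XPOT, 4 fell (TARS, GARS, EPRS and MARS) and none rose, with a median of -0.33. TARS, threonyl-tRNA synthetase, stood at 528 and 790 FPKM in wild type and at 203 and 211 FPKM in knockout (log2 fold change -1.64 ± 0.21, adjusted p = 0.0014). GARS, glycyl-tRNA synthetase, stood at 185 and 281 FPKM and at 95.7 and 90.5 FPKM (-1.29 ± 0.21, adjusted p = 0.0029). In all 4 genes WT rep2 was well above WT rep1. The count rested on that library: without WT rep2 1 of the 13 genes was lower, and it was 2 without the variance trend and 0 with no filter on low values. After the correction TARS, GARS and EPRS were called lower, compared with 7.39% of tested genes. In TPM TARS (-0.96, adjusted p = 0.0004) and GARS (-0.61, adjusted p = 0.0051) passed the p threshold and missed 2-fold. IARS (1.46), NARS (1.07) and XPOT (1.27) were called higher in TPM, as were 33.1% of tested genes.

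Among 18 genes for eIF2, its exchange factor, kinases, phosphatase subunits and regulators, 3 rose and 1 fell. The kinases EIF2AK3 (PERK), which senses unfolded protein, and EIF2AK2 (PKR), which senses double-stranded RNA, rose from 3.62 and 2.86 FPKM to 8.60 and 10.8 FPKM and from 8.06 and 6.21 FPKM to 19.1 and 19.5 FPKM. Their log2 fold changes were 1.55 ± 0.18 (adjusted p = 0.0010) and 1.44 ± 0.15 (adjusted p = 0.0008), and only that of EIF2AK3 was past 2-fold after the correction (1.05 against 0.32). The third was PPP1R15B, a phosphatase subunit that removes phosphate from eIF2 (log2 fold change 1.27), and the gene that fell was EIF2B4, a subunit of the exchange factor (-1.33). After the correction PPP1R15B (0.64) and EIF2B4 (-0.76) came under 2-fold. In TPM PPP1R15B was called higher (1.95) and EIF2B4 was not called (-0.65). The kinases of the amino acid and heme branches had negative log2 fold changes on the deposited scale, without being called. EIF2AK4 (GCN2) stood at 27.1 and 43.1 FPKM in wild type and at 17.6 and 18.3 FPKM in knockout. It was not called on the deposited scale (log2 fold change -0.93, adjusted p = 0.0120) and was called lower after the correction (-1.43, adjusted p = 0.0049). EIF2AK1 (HRI) had a log2 fold change of -0.32 (adjusted p = 0.0459). In TPM EIF2AK4 stood at -0.25 (adjusted p = 0.197 by limma), and EIF2AK1 turned to 0.36 (adjusted p = 0.0145). These are mRNA levels, and neither kinase activity nor phosphorylated eIF2 was measured.

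Of 15 other factors and targets of the response, 13 were tested, 3 fell and 1 rose. EIF4EBP1, a repressor of cap-dependent translation, stood at 217 and 291 FPKM in wild type and at 71.0 and 79.1 FPKM in knockout (log2 fold change -1.75 ± 0.17, adjusted p = 0.0007). NUPR1 (-1.24) and JDP2 (-1.11) fell too, and both were called lower after the correction as well, whereas EIF4EBP1 came under 2-fold there (-0.81). In TPM it was the other way: EIF4EBP1 was called lower (-1.07), while NUPR1 (-0.56) and JDP2 (-0.43) were not called. KLHL24, an adaptor of a ubiquitin ligase, rose from 2.35 and 2.32 FPKM to 9.91 and 8.97 FPKM (1.97 ± 0.13, adjusted p = 0.0005), and it too came under 2-fold after the correction (0.92), where CEBPB was the gene called higher (1.09). ATF3, often induced with DDIT3, was not called (log2 fold change 0.15, adjusted p = 0.34).

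Of 17 genes of the ATF6 and XBP1 arm, the other branches of the unfolded protein response, 4 fell and 1 rose (median -0.41). Without WT rep2 these counts were 2 and 3. MANF, a secreted protein of the endoplasmic reticulum, stood at 118 and 141 FPKM in wild type and at 39.8 and 41.2 FPKM in knockout (log2 fold change -1.67 ± 0.12, adjusted p = 0.0005). CRELD2 (-1.26), SDF2L1 (-1.14) and CALR (-1.12) fell as well, and SEL1L, part of the machinery that clears misfolded protein, rose (1.47 ± 0.10, adjusted p = 0.0005). The chaperone HSPA5 (BiP) was lower without reaching 2-fold (-0.67, adjusted p = 0.0049), stood near 0 in TPM (0.0066), and was past both thresholds after the correction. Of the 5 called on the deposited scale, MANF alone was past them after the correction.

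**Figure D4:**
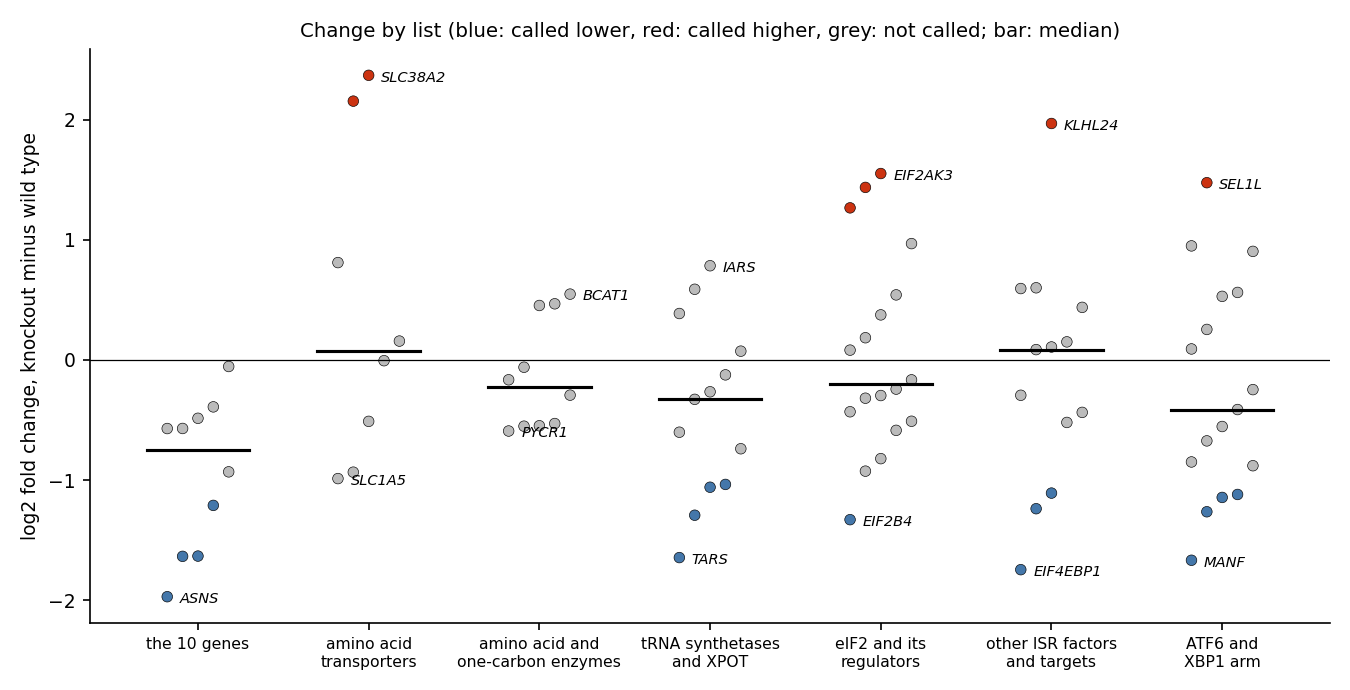
Log2 fold change, knockout minus wild type on the deposited scale (y axis), of each tested gene in the 10 genes and the 6 pathway lists (x axis), coloured blue if called lower, red if called higher and grey if not called, with a bar at the median. SLC38A2 lies highest at 2.37 and ASNS lowest at -1.97; in TPM 24 pathway genes were higher and 1 lower.

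The genes whose pattern over the 4 libraries was nearest to that of ATF4, by Euclidean distance of centred log2 values, were NCOA6, MCRS1 and RBFA, with log2 fold changes of -0.95, -0.92 and -0.94. With 4 libraries this measure resolves little: 169 tested genes outside the 10 lay within a distance of 0.1 of ATF4.

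Within each genotype the second library stood higher for most genes of the table, and for most of the 10. In WT rep2, 9 of the 10 stood above WT rep1, compared with 62.6% of tested genes, and in TXNDC9-KO rep2, 9 of the 10 stood above TXNDC9-KO rep1, compared with 66.8%, with DDIT4 the exception in both. Summed over the 10 genes, the level was 862 FPKM in WT rep1, 980 FPKM in WT rep2, 524 FPKM in TXNDC9-KO rep1 and 540 FPKM in TXNDC9-KO rep2. As a share of the library's sum this was 0.107% and 0.101% in wild type against 0.0978% and 0.0949% in knockout, so the gap between genotypes was far smaller in proportion to the library than in FPKM. Leaving out either knockout library left 0 of the 10 genes, and 0 of all tested genes, past the thresholds (limma, with the single library assumed to vary like the wild-type pair), with the smallest adjusted p at 0.016 and 0.0232. At an unadjusted p under 0.05, 6 of the 10 genes passed without TXNDC9-KO rep1 and 8 without TXNDC9-KO rep2.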

How the data were processed

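Per the labels and the methods, alignment was to hg38 by TopHat2 with an Ensembl annotation, and the authors deposited FPKM per gene and library from Cuffdiff (Cufflinks). Versions, the normalization across libraries and whether strand was used are not given in the sources used here. The deposited averages, fold changes, p-values and q-values of the authors' comparison were not used. The table had 231916 lines, 57979 with values, and each identifier occurred 4 times; identifiers were put back in order, and 56935 were found in GENCODE release 44, the source of positions, canonical transcripts, lengths and GC content.

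Genes with a mean above 1 FPKM (13246) were compared on log2(FPKM + 0.1), on which fold changes of low genes are understated, by limma 3.58.1 (R 4.3.3, variance trend, all 4 libraries, no block). The study's thresholds were used (2-fold, 0.01). Length and GC correction was a loess fit (span 0.3) per library. The limma comparison without this correction was run on simulated data of 13112 genes, with the same spread for every gene and no length trend. It found 100% of the 200 genes that had been changed by more than 2-fold and made 0 false calls. This does not speak to the correction, to differences near 2-fold or to genes of unequal spread. There are no counts, so no depth, counting interval or floor is given. The 10 genes and the lists were chosen with earlier results of these data known. The genes named are the 10, TXNDC9, the 2 largest changes of each list, pseudogenes with values, overlapping genes and the 3 nearest to ATF4; the other genes of the lists were named after their values were seen. The narrow promoter windows are from RefSeq (GRCh38.p14, all 10 genes matched) and the wide ones from the hg38 reference. Alternatives were pseudocounts of 1 and 0.01, no filter or a mean above 5 FPKM, an adjusted p under 0.05, no fold threshold, TPM, centring, no trend, the replicate block and leaving out each library. Python 3.11.15, pandas 2.3.3, numpy 2.4.6 and matplotlib 3.10.9 were used.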

Additional observations from a re-analysis of the deposited data

How the results depend on the processing

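The 4 calls among the 10 genes were kept with pseudocounts of 1 and 0.01, an adjusted p under 0.05 and the replicate block. Of all genes, 2021 were called lower and 1885 higher. With no fold threshold these were 3590 and 3142, with 8 of the 10 genes lower and 25 pathway genes lower and 15 higher. With a mean above 5 FPKM 1220 genes were higher, and with no filter 7 pathway genes were lower. In TPM 447 genes were lower and 4380 higher, with 1 of the 10 genes and 1 pathway gene lower, 24 pathway genes higher, a median of -0.077 for the 10 genes, and both knockout values below both wild-type values in 5 of them. Centring gave a median of -0.89. After the length and GC correction 969 genes were lower and 841 higher, with 1 of the 10 lower, 3 pathway genes higher and a median of -0.35, and with the replicate block added 975, 841, 1, 3 and -0.35.

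Leaving out each library in turn gave 0 to 2633 genes lower and 0 to 2136 higher, 0 to 5 of the 10 genes lower, and 0 to 16 pathway genes lower and 0 to 9 higher. The 0s came without either knockout library (limma; 7129 and 7307 genes had an unadjusted p under 0.05).

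Signs turned in TPM for TRIB3 (0.11), PSAT1 (0.29), SESN2 (0.10), DDIT4 (0.63), ATF5 (0.19), TXNDC9 (0.12), PYCR1 (0.088), SHMT2 (0.13) and MBD6 (0.67). They turned after the correction, with and without the block, for TRIB3 (0.12), DDIT4 (0.66), ATF5 (0.23), PYCR1 (0.20) and MBD6 (0.35), and without WT rep1 or TXNDC9-KO rep2 for DDIT4 (range over the 4 libraries left out, -0.15 to 0.038) and MBD6 (-0.097 to 0.081). The causes were not tested.

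The labels do not say whether the replicate numbers pair the libraries, and across genes the correlation of same-numbered deviations was -0.0904. The replicate block gave 2146 genes lower and 1960 higher, with 4 of the 10 lower, 12 pathway genes lower and 7 higher and a median of -0.75 for the 10. The smallest adjusted p (limma) was 1.4e-06 with the block and 0.0005 without it. The unknown depth limits what can be said of low genes such as CHAC1 and SESN2.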
